A study of Rattus norvegicus with 4 samples.

Results

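Myeloid C-type lectin receptors are membrane proteins of macrophages, monocytes, dendritic cells and neutrophils that bind sugars, lipids and products of dead cells, and this account covers 8 of their genes together with Card9, which encodes an adaptor used by several of them. The genes were chosen by name, as the non-control array probes annotated to Clec4a, Clec4a1, Clec4a3, Clec4d, Clec4e, Clec7a, Clec10a, Clec12a and Card9, and they make up 9 of the 12858 genes tested. The files spell 8 of the 9 names in this way, and the Clec4a probe, called Clecsf6 there, was matched through its transcript accession. Each gene had 1 probe, all 9 probes passed the filter on dim probes, and every one was well above background on all 4 arrays.

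The series compared gene expression in splenic cells of rats given liposomes, small vesicles of lipid, with that of rats given saline, on 2 arrays per group. In the liposome group, male WKAH rats, an inbred strain, aged 8 to 12 weeks received liposomes, and their spleens were taken after 24 hours. In the saline group, male WKAH rats of the same age range received saline and were sampled at the same 24 hours. The lipid composition and the dose of the liposomes are not given in the sources used here. From the spleens, cells carrying MHC class II were first removed with the antibody OX-6, and cells carrying CD11b/c were then collected with OX-42; the series title calls the result splenic macrophages. The labels carry exp1 and exp2 in each group, the same pair of names in both, without saying what an exp is; array 1 and array 2 stand for them below. Nothing in the labels says that the 2 arrays of a group came from separate animals, and a p-value here therefore reflects array-to-array spread alone, which may be technical. Both genes for the alpha chains that OX-42 binds, Itgam and Itgax, were well above background on all 4 arrays, and their log2 differences were 0.46 (adjusted p = 0.225) and -0.42 (adjusted p = 0.112, limma). The MHC class II genes RT1-Da, RT1-Bb and RT1-Db1, and Cd74, which encodes the invariant chain that escorts MHC class II, were also well above background on all 4 arrays. RT1-Db1 fell (log2 difference -0.63, adjusted p = 0.0450, limma), and the differences of RT1-Bb (-0.49), RT1-Da (-0.42) and Cd74 (-0.37) did not pass the test.

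As background, the receptors differ in how they pass on a signal. Clec7a (Dectin-1, a receptor for fungal beta-glucan) signals through a motif in its own tail that recruits the kinase Syk, whereas Clec4e (Mincle) and Clec4d (MCL), which bind glycolipids, pair with the adaptor chain encoded by Fcer1g. Downstream of Syk, Card9 joins Bcl10 and Malt1 to activate NF-kB. Clec4a (DCIR) and Clec12a (MICL) carry inhibitory motifs that recruit phosphatases such as that encoded by Ptpn6, and Clec10a (MGL) takes up glycoproteins with terminal galactose or N-acetylgalactosamine. Several of these genes stand next to each other in a cluster, known in the rat as the antigen-presenting lectin-like receptor gene complex.

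The 60-base probes of 5 of these genes lie in that cluster on chromosome 4 of the rn4 build, the build of the positions in the files, and the Clec4a1 and Clec4e probe starts stand 467.8 kb apart. The Clec4d probe (chr4:159892539-159892598, plus strand) and the Clec4e probe (chr4:159903945-159904004, minus strand) start 11.4 kb from each other, and the Clec4a probe (chr4:159709889-159709948, plus strand) starts 182.6 kb before that of Clec4d. Exon annotation of rn4 was not used here; each probe is tied by the files to a transcript of its gene. Because the cluster genes resemble one another, the probes of its 7 measured genes were compared in pairs, after the results had been seen. Probes were laid against each other without gaps and each overlap was scored over its whole length. A shorter matching stretch inside an overlap could therefore be missed. In 20 of the 21 pairs the best such overlap of at least 20 bases had less than 60% identity. No 2 of the probes shared a transcript accession. The closest pair was Clec4a2 and Clec4a, which match at 20 of 27 bases, shown here because the differences of these genes had opposite signs, with mismatched bases in capitals:
Clec4a2: ggtatgCgaCttcaCtgttAtCTacCa
Clec4a: ggtatgTgaTttcaTtgttGtTCacTa
Whether a probe also binds the transcript of another cluster gene was not tested.

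Between liposome and saline arrays, 4 of the 9 genes passed the test: Clec4a rose, while Clec10a, Clec4d and Clec4e fell. Over all 12858 genes, 8.89% passed (1143 genes), 4.83% as higher (621) and 4.06% as lower (522), using limma with Benjamini-Hochberg adjustment over all genes and a threshold of 0.05. When arrays were scaled by their median, that split became 852 higher and 442 lower. With a block by exp name it was 828 higher and 988 lower. Without liposome array 1 or 2 no gene passed (0 each, with 2177 and 2397 at an unadjusted p under 0.05), and without saline array 1 or 2 the count was 499 and 372, with 1 of the 9 genes, Clec10a, among them each time. Without the filter on dim probes no gene passed either (0 of 21971), and adjusted p for the 4 genes was 0.181 to 0.234 (limma). An unadjusted p under 0.05 was held by 3005 of the 21971 genes, against 4181 of the 12858 with the filter. The 9 genes had a median log2 difference of -0.22 against -0.04 over all genes, and a median absolute log2 difference of 0.52 against 0.25. Levels are given below as log2 of the processed signal relative to the array's 75th percentile, and differences as liposome minus saline on that log2 scale. For a single gene, an exact permutation test with 2 arrays on each side cannot go below p = 0.333, so each call rests on the spread that limma pools over genes. The RNA came from a mixture of cells, so fewer cells of a type and less RNA per cell cannot be told apart.

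**Figure D1:**
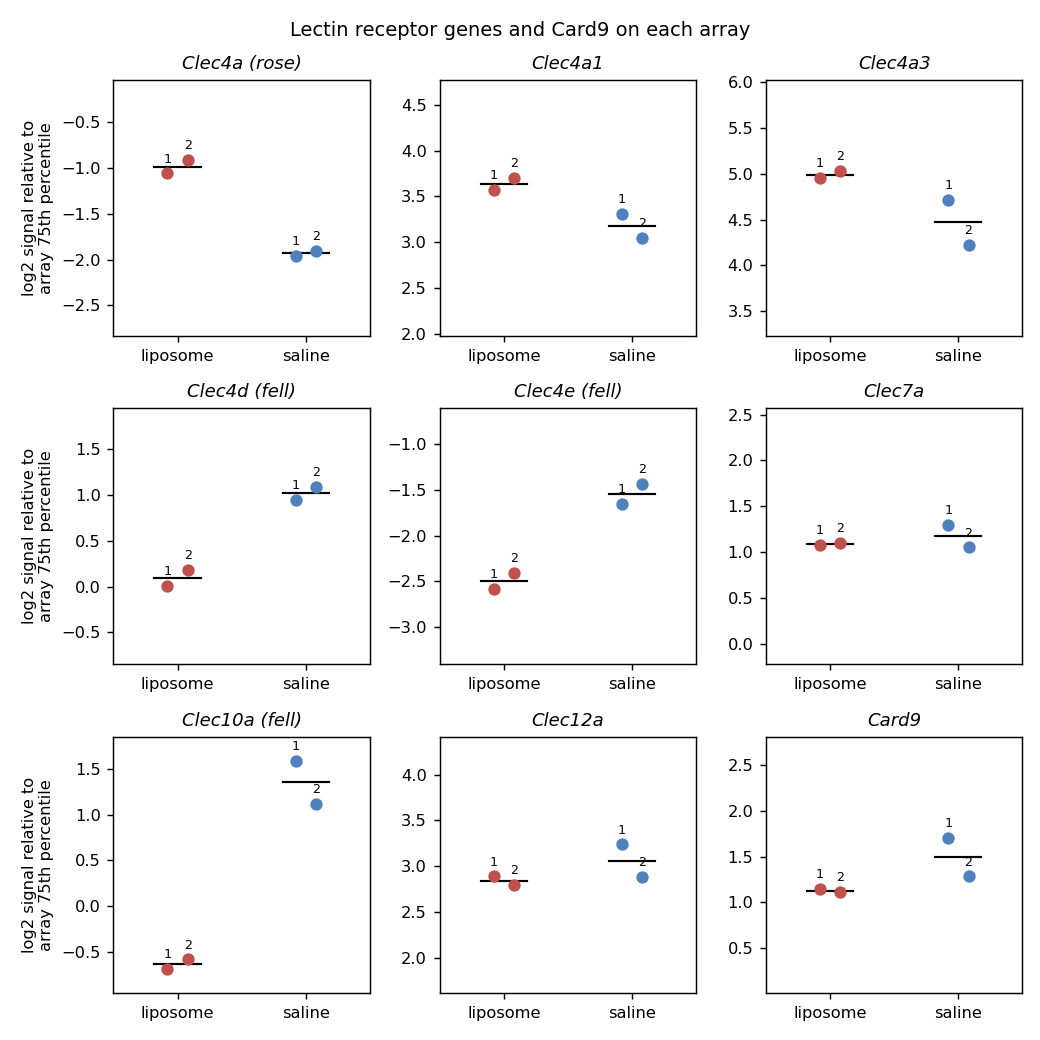
Each panel shows 1 gene, with the log2 signal relative to the array's 75th percentile on the vertical axis, liposome arrays at the left and saline arrays at the right; points are arrays, numbers 1 and 2 stand for exp1 and exp2 of the labels, lines are group means, and every panel spans the same range of log2 units. Clec10a has the widest gap between groups, and the groups of Clec7a and Clec12a overlap.

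The inhibitory receptor gene Clec4a had levels of -1.06 and -0.91 on the liposome arrays, against -1.96 and -1.90 on the saline arrays. The processed intensities were 524 and 560 on the liposome arrays, against 248 and 266 on the saline arrays. Both liposome arrays stood above both saline arrays, and the distance between the groups exceeded the distance within either. The log2 difference was 0.95 ± 0.11 (SE; 2 arrays per group), a 1.93-fold higher level, with an adjusted p of 0.0235 (limma). Leaving out 1 array at a time kept the size, between 0.87 and 1.02, but ended the call each time, with adjusted p-values of 0.137 and 0.159 without liposome array 1 or 2 and of 0.0606 and 0.0568 without saline array 1 or 2.

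Its relatives Clec4a1 and Clec4a3 had positive differences that did not pass the test. Clec4a2, a neighbour outside the 9, had a negative one that did not pass either (-0.58, adjusted p = 0.0828, limma). Clec4a1 had levels of 3.57 and 3.70 on liposome arrays, against 3.31 and 3.05 on saline arrays, a log2 difference of 0.46 ± 0.14 (SE; adjusted p = 0.106, limma). Clec4a3 had levels of 4.95 and 5.03 on liposome arrays, against 4.71 and 4.23 on saline arrays, a log2 difference of 0.52 ± 0.19 (SE; adjusted p = 0.155, limma). The groups did not overlap for either gene, and the size depended on which arrays were set against each other: between arrays of number 1 the difference was 0.27 for Clec4a1 and 0.24 for Clec4a3, and between arrays of number 2 it was 0.65 and 0.80. Over all genes, 65.5% had groups that did not overlap (30.4% higher and 35.1% lower), so 7 of these 9 genes without overlap (3 higher and 4 lower) is a share read against a high background.

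Clec4d and Clec4e, which encode receptors that can form a complex on the cell surface, both fell. Clec4d had levels of 0.01 and 0.18 on liposome arrays, against 0.95 and 1.09 on saline arrays. Clec4e had levels of -2.58 and -2.41 on liposome arrays, against -1.65 and -1.43 on saline arrays. For both genes each liposome array stood below each saline array, with differences between same-numbered arrays of -0.94 and -0.91 for Clec4d and of -0.93 and -0.97 for Clec4e. The log2 difference was -0.92 ± 0.12 for Clec4d (SE; adjusted p = 0.0303, limma). It was -0.95 ± 0.13 for Clec4e (SE; adjusted p = 0.0336, limma). In folds, the liposome level was lower by 1.90 for Clec4d and by 1.93 for Clec4e. The processed intensities of Clec4e were 182 and 198 on liposome arrays, against 306 and 367 on saline arrays, beside medians of 171 to 188 over all spots of an array. Leaving out 1 array at a time ended both calls each time: adjusted p was 0.177 and 0.187 for Clec4d and Clec4e without liposome array 1, 0.146 and 0.153 without liposome array 2, 0.0600 and 0.0562 without saline array 1, and 0.0659 and 0.0660 without saline array 2.

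Neutrophil genes moved the same way, and monocytes and neutrophils are known to express Clec4d and Clec4e. Of 13 measured neutrophil markers, 8 fell (Cd177, Cxcr2, Lcn2, Mmp8, Ngp, Padi4, S100a8 and S100a9) and none rose (0). Mpo and Ltf, both defining markers, were not measured above the filter. Over all genes, 4.06% fell and 35.1% were lower without overlap. All 13 measured neutrophil markers were lower without overlap. Their summed level on a linear scale, in multiples of the array's 75th percentile, was 161 and 184 on liposome arrays, against 278 and 320 on saline arrays. Of 11 measured monocyte markers, 4 fell (Ccr2, Cx3cr1, Fcgr3a and Nr4a1) and none rose (0). By sign, 7 were lower and 4 higher in liposome, 6 and 2 of them without overlap. Their summed levels were 324 and 345 on liposome arrays, against 402 and 384 on saline arrays. These sums give most weight to the brightest marker, Plac8, whose log2 difference was 0.02. The part of these cells in the fall of Clec4d and Clec4e was not tested.

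Clec10a had the largest absolute difference of the 9 genes and ranked 179 by size among all 12858. It had levels of -0.69 and -0.58 on liposome arrays, against 1.59 and 1.12 on saline arrays. Both liposome arrays lay far below both saline arrays, and the saline arrays differed more from each other than the liposome arrays did. The log2 difference was -1.99 ± 0.19 (SE; adjusted p = 0.0193, limma), which is a level 3.97-fold lower in liposome, with differences between same-numbered arrays of -2.28 and -1.70. The array carries 10 spots of this probe (chr10:57002796-57002855 on rn4, plus strand), and the intensities of the spots ranged from 655 to 706 on liposome array 1 and from 670 to 738 on liposome array 2, against 2400 to 3181 on saline array 1 and 1964 to 2261 on saline array 2. The 10 spots of 1 array are repeat measurements of the same RNA and do not add replicates. The call held without saline array 1 or 2 (adjusted p = 0.0337 each, limma) and was lost without liposome array 1 (0.108) or 2 (0.103).

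Macrophage and dendritic cell markers stand beside the fall of Clec10a, which macrophages and dendritic cells are known to express; the OX-6 step was meant to remove cells with MHC class II, which dendritic cells carry. Of 13 measured macrophage markers, 7 fell (Axl, C1qa, C1qb, C1qc, Cd163, Cd5l and Vcam1) and 1 rose (Mertk). The defining markers Vsig4 and Marco were not measured above the filter, and no probe was assigned to Timd4, also a defining marker. Over all genes, 4.06% fell and 4.83% rose, and 35.1% were lower and 30.4% higher without overlap. Of the 13 macrophage markers, 8 were lower and 5 higher in liposome, 8 and 4 of them without overlap. Their mean log2 levels were 0.57 and 0.31 on liposome arrays, against 1.01 and 0.87 on saline arrays. Their summed levels were 89.8 and 81.4 on liposome arrays, against 106.8 and 108.6 on saline arrays. These sums give most weight to the brightest markers. Among them were Cd68, with a log2 difference of 0.76 (adjusted p = 0.0540, limma), and C1qb, with -1.71. Of 13 measured dendritic cell markers, 4 fell (Batf3, Dpp4, Flt3 and Tcf4) and 1 rose (Cadm1). By sign, 11 were lower and 2 higher in liposome, 8 and 2 of them without overlap. Their mean log2 levels were -0.27 and -0.21 on liposome arrays, against 0.11 and 0.26 on saline arrays. Their summed levels, which give most weight to the brightest markers, overlapped at 50.2 and 55.4 on liposome arrays, against 47.7 and 54.6 on saline arrays. The part of these cells in the fall of Clec10a was not tested.

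Clec7a and Clec12a had groups that overlapped, and Card9 had a difference that did not pass the test. Clec7a had levels of 1.08 and 1.10 on liposome arrays, against 1.29 and 1.05 on saline arrays, a log2 difference of -0.08 ± 0.12 (SE; adjusted p = 0.665, limma). Clec12a, whose probe lies on unplaced sequence of chromosome 4, had levels of 2.89 and 2.79 on liposome arrays, against 3.24 and 2.88 on saline arrays, a log2 difference of -0.22 ± 0.16 (SE; adjusted p = 0.378, limma). Neither gap was larger than the spread between the saline arrays. Card9, on chromosome 3, had levels of 1.14 and 1.11 on liposome arrays, against 1.71 and 1.28 on saline arrays, a log2 difference of -0.37 ± 0.17 (SE; adjusted p = 0.224, limma). Leaving out 1 array at a time moved the log2 difference between -0.58 (without saline array 2) and -0.15 (without saline array 1) for Card9, and between -0.40 (without saline array 2) and -0.04 (without saline array 1) for Clec12a. A p above the threshold does not show that these genes were at equal levels.

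Read in the order in which a RefSeq gene table (GRCr8) places the genes on chromosome 4, the cluster from Clec4a1 to Clec4e held opposite signs. That table lists 9 genes there, 7 of them measured, and an order table of this kind was drawn up after the results had been seen. The log2 differences ran 0.46 for Clec4a1, 0.52 for Clec4a3, -0.58 for Clec4a2 (adjusted p = 0.0828), 0.95 for Clec4a, 0.36 for Clec4b2 (adjusted p = 0.267), -0.92 for Clec4d and -0.95 for Clec4e (limma throughout). Clec4a, Clec4d and Clec4e passed the test, and the other four did not. In the separate interval from Clec12a to Olr1, all 6 measured genes had negative differences and none passed (0). Over all genes, 6929 of 12858 had negative differences. The 6 included Clec7a at -0.08 (SE 0.12) and Clec1a at -0.39 (SE 0.36). The lowest was -1.09 for Clec9a, a dendritic cell receptor for exposed actin (adjusted p = 0.0540, limma).

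**Figure D2:**
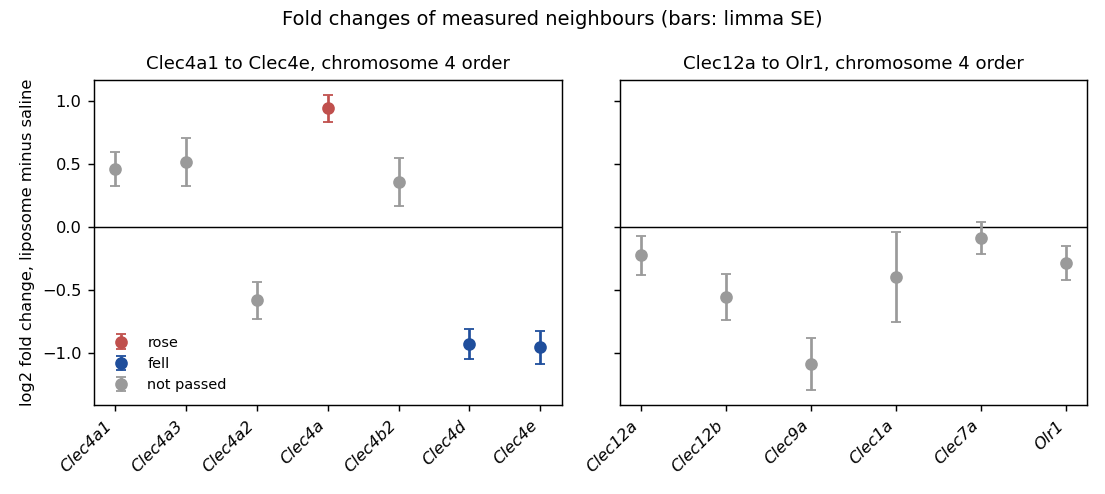
Log2 differences (liposome minus saline; bars, SE) of the measured genes in the order of chromosome 4, for the interval from Clec4a1 to Clec4e at the left and that from Clec12a to Olr1 at the right; spacing between genes is not to scale. Clec4a rose and Clec4d and Clec4e fell within the first interval, and no gene of the other one passed the test.

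Sequence is shown here for genes of the same cluster that moved in opposite directions. The 250 bases before the start of Clec4a, Clec4d and Clec4e are printed from RefSeq (GRCr8), each read in the direction of its gene. Clec4d and Clec4e are next to each other, and other genes lie between them and Clec4a. Capitals mark matches to the 2 of 4 searched motifs that occur in them, on either strand: GAGGAA, a core of PU.1 sites, and TTGCNNAA, of C/EBP sites. The motifs, like the choice of promoters, were picked after the results had been seen.
Clec4a: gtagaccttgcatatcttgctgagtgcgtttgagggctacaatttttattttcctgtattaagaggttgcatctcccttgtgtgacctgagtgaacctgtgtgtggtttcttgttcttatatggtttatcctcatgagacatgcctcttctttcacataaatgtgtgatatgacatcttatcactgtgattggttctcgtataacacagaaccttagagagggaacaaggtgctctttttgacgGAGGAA
Clec4d: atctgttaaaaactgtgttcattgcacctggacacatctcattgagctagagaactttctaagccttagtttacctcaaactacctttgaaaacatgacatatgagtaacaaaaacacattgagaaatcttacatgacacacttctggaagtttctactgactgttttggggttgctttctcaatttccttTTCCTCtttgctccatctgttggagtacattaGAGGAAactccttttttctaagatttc
Clec4e: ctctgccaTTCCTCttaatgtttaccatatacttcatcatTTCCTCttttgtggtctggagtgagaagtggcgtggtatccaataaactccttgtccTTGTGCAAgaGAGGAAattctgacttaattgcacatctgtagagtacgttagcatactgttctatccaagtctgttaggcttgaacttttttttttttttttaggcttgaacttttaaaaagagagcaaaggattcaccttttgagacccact
GAGGAA matched once for Clec4a, at -6, at -59 and -27 for Clec4d, and at -242, -210 and -143 for Clec4e, where TTGCNNAA also matched at -153. Among promoters of this length in the table, 23.2% of 27457 hold GAGGAA, 9.2% hold TTGCNNAA, 6.36% hold TGANTCA (AP-1) and 0.317% hold an NF-kB motif. Of the 8 of the 9 genes with a promoter in the table, 6 held GAGGAA (Clec12a, Clec4a, Clec4a1, Clec4a3, Clec4d and Clec4e), 2 TTGCNNAA (Clec12a and Clec4e) and 1 TGANTCA (Clec12a); the NF-kB motif matched in 0. A match is a run of letters and says nothing of binding in these cells. GAGGAA was present upstream of the gene that rose and of the 2 that fell.

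Of 37 measured genes of the signalling route, Irf1, a transcription factor, fell, and 36 did not pass the test, a called share of 2.7% against 8.89% over all genes; the median log2 difference was -0.11. Irf1 had levels of 5.40 and 5.59 on liposome arrays, against 6.47 and 6.35 on saline arrays (log2 difference -0.91, adjusted p = 0.0308, limma). Leaving out any 1 array ended that call, with adjusted p between 0.0620 and 0.178. The adaptor chains showed small differences that did not pass: Fcer1g 0.12 (adjusted p = 0.453, limma) and Tyrobp 0.04 (0.799). Syk, the kinase that Clec7a recruits, had levels of 2.33 and 2.11 on liposome arrays, against 2.75 and 2.55 on saline arrays, a log2 difference of -0.43 ± 0.14 (SE; adjusted p = 0.123, limma). That was its brightest probe, and the mean of its probes gave -0.25 (adjusted p = 0.311, limma). The remaining steps did not pass either, with log2 differences of -0.35 for Malt1, -0.29 for Plcg2, -0.17 for Bcl10, -0.17 for Ptpn6 and 0.01 for Prkcd, whose adjusted p-values ran from 0.160 to 0.977 (limma).

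Of 21 measured genes that such signalling can induce (cytokines, chemokines and inflammasome parts), Il1a rose and 20 did not pass the test, with a median log2 difference of -0.35. Il1a, which encodes interleukin-1 alpha, had levels of 0.47 and 0.65 on liposome arrays, against -1.98 and -2.58 on saline arrays. Both liposome arrays stood far above both saline arrays, with a log2 difference of 2.84 ± 0.23 (SE; adjusted p = 0.0151, limma), or 7.15-fold. The call held without saline array 1 (0.0290) or 2 (0.0337) and was lost without liposome array 1 (0.0885) or 2 (0.0931). Il1b, chosen after its values were seen as the related cytokine, was at 6.16 and 6.60 on liposome arrays, against 6.80 and 7.10 on saline arrays (log2 difference -0.57, adjusted p = 0.144). Il12b, also chosen after its values were seen, was not well above background on either liposome array (adjusted p = 0.0745, limma), and also did not pass.

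Among 21 measured C-type lectin genes outside the 9, 1 fell, Mrc2, and 20 did not pass the test, with a median log2 difference of -0.35. Mrc2, which encodes a collagen-binding uptake receptor, had levels of -2.86 and -3.04 on liposome arrays, against -1.72 and -2.11 on saline arrays (log2 difference -1.04, adjusted p = 0.0438, limma), and leaving out any 1 array (adjusted p between 0.0530 and 0.206) or quantile normalization (0.0506) ended the call. Its relative Mrc1, the mannose receptor, chosen after its values were seen, had a log2 difference of 0.66 (adjusted p = 0.0732, limma). The counts are 4 of 9 for the receptors with Card9, 1 of 21 for the other lectins, 1 of 37 for signalling and 1 of 21 for the induced genes; 8.89% of all genes tested passed, and differences between these shares were not tested.

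**Figure D3:**
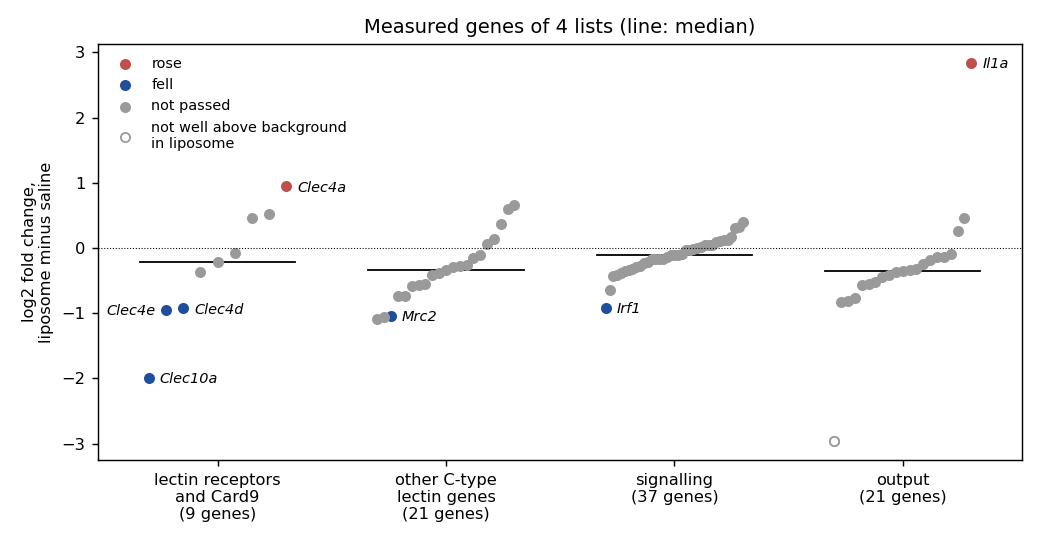
Log2 differences (liposome minus saline) of the measured genes of the 4 lists (output being the induced genes), each point 1 gene in ascending order within its list and each line the median; coloured points passed the test and are named, and the open point, Il12b, was too dim on both liposome arrays to be well above background. Clec10a, Clec4d and Clec4e stand low and Clec4a high within the first list.

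Likeness of levels over the 4 arrays was taken as the root mean square difference of gene-centred log2 values. Only the receptors that passed the test are listed with their closest genes. These were Npy1r (0.055) and Spns2 (0.093) for Clec10a, and Nfatc4 (0.0087) and Tuba1a (0.018) for Clec4d. For Clec4e they were Apoa5 (0.0048) and Btn2a2 (0.027), and for Clec4a they were Pax8 (0.028) and Ptpmt1 (0.038). Within 0.1 of each of these receptors stood 3 genes for Clec10a, 73 for Clec4d, 53 for Clec4e and 46 for Clec4a. For the genes of the 9 that did not pass, the number ran from 136 for Clec4a3 to 1792 for Clec7a. Clec7a had the smallest absolute difference of the 9. With 4 arrays in 2 groups this likeness mostly repeats the group difference, and it is given as a description.

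Across the whole array, 61.3% to 66.3% of spots were well above background on each array and none was saturated (0). Log2 levels correlated at 0.993 between the liposome arrays and 0.989 between the saline arrays, whereas a liposome array and a saline array correlated at 0.971 to 0.975, over genes that are not independent of each other. All 4 arrays were on 1 slide and read in 1 scan. Natural killer cell markers had a median log2 difference of -1.35, and all 10 measured were lower in liposome both between the exp1 arrays (-1.67 to -0.02) and between the exp2 arrays (-1.80 to -0.10). They also differed within groups, with mean log2 levels of 0.31 and 1.65 on liposome arrays, against 1.46 and 2.84 on saline arrays. Summed levels were 50.5 and 79.1 on liposome arrays, against 71.4 and 150 on saline arrays. These sums give most weight to the brightest marker, Tbx21, whose log2 difference was -0.06. None of the 10 passed the unpaired test (0). Of 13 measured B cell markers none passed (0), but 12 were lower in liposome without overlap, against 35.1% over all genes. The 13 had a median log2 difference of -0.68 and summed levels of 50.02 and 39.75 on liposome arrays, against 69.7 and 67.4 on saline arrays. None of 11 T cell markers passed (0). Of 8 measured red cell markers 6 fell, against 4.06% over all genes. Summed levels of the 8 were 33.9 and 32.5 on liposome arrays, against 88.1 and 90.8 on saline arrays.

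**Figure D4:**
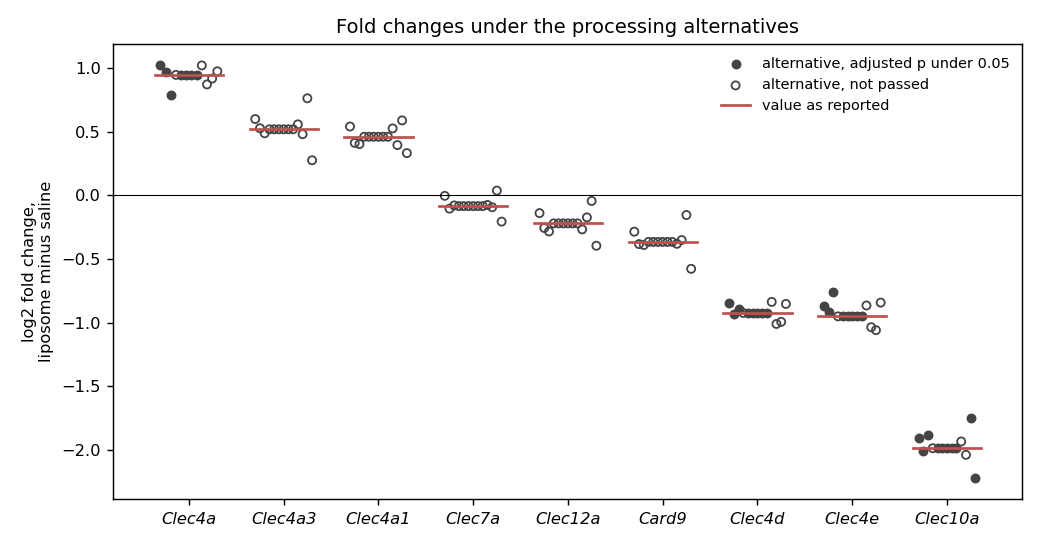
Log2 differences (liposome minus saline) of the 9 genes as reported (lines) and under the processing alternatives (points), filled where the adjusted p was under 0.05. The sign of the 4 genes that passed was the same under every alternative shown, and Clec7a stays near 0.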

How the data were processed

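Cy3-labelled cRNA from 0.2 ug of RNA per sample was hybridised to 4 one-colour Agilent arrays of 60-base rat probes. The deposited scanner intensity values come from the authors' run of Feature Extraction (Agilent, version 10.7.3.1), per the submitters' processing notes; the processed signal had been corrected for spatial trends across the array, per the file headers. Control and outlier spots were left out, log2 processed signals were averaged over the spots of a probe, and each array's 75th percentile was subtracted. A probe was kept if well above background on both arrays of a group, and 278 probes that lacked a value on any array were dropped. Symbols were updated through accessions to a GRCr8 RefSeq table (18006 of 30367 probes matched, 8186 kept the file's name, 4175 were unnamed and not tested), and the brightest probe stood for a gene. limma 3.58.1 (R 4.3.3) with Benjamini-Hochberg adjustment tested 12858 genes, called at 0.05, with 2 residual and 2.26 prior degrees of freedom. The fit was tested on simulated data with independent noise, which lack the deviations shared by exp name. That test does not show that the calls hold. The number of arrays limits the precision. The alternatives were 13: scaling, background correction, filter, probe and name rules, a block by exp name, and leaving out each array.

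The 9 genes, the gene lists and the tests were chosen with earlier results of these data known. Named genes are the 9, the 8 signalling genes Fcer1g, Tyrobp, Syk, Bcl10, Malt1, Prkcd, Plcg2 and Ptpn6, up to 6 genes with the largest called difference in each further list, and the 2 most similar genes. The cell type markers named are the called or unmeasured ones of their lists, with Plac8, Cd68 and Tbx21 in addition. Like genes of the gate and the chromosome 4 order and those marked in the text, these markers were named after their values were seen.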

Additional observations from a re-analysis of the deposited data

How the results depend on the processing

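Over the alternatives, the values of the 9 genes kept direction and side of the threshold in 97 cases, kept direction but lost the call in 18, and changed sign in 1. Clec10a passed in 10 of 13 alternatives, Clec4d and Clec4e in 8 of 13 each, and Clec4a in 7 of 12 (it has no value under the files' own names). Without the filter on dim probes, no gene passed among 21971 tested. That was 0 of all genes, 0 of the 9, 0 of the other lectins, 0 of signalling and 0 of induced genes. There, 3005 genes had an unadjusted p under 0.05 in limma, 4 of them among the 9. With the filter, 4181 of 12858 genes had one, 5 of them among the 9. The cause of that change was not tested. Leaving out each array gave 0 to 499 called genes, 0 to 1 of the 9, 0 to 1 of the other lectins, 0 of signalling and 0 to 2 of the induced genes; the lone array is assumed to vary like the other group. Without liposome array 1 or 2 no gene passed (0), with 2177 and 2397 at an unadjusted p under 0.05. Arrays with the same exp name deviated together (r = 0.355 over genes), but the labels do not say what an exp is, and there are only 2 pairs. With that replicate block, 1816 genes passed, 828 higher and 988 lower, against 621 higher and 522 lower without it; the 1816 held 6 of the other lectins and 3 of the induced genes. The called other lectins were 4 under median scaling, 4 under normexp with quantile normalization, 3 with probes well above background on all arrays and 2 with the files' names; called signalling genes were 2 under each of the first 3 of these. The cause of these changes was not tested. Signs changed for genes near 0: Prkcd was -0.01614 under quantile normalization, -0.01735 under normexp, -0.01849 without liposome array 1 and -0.1624 without saline array 2 (leaving out each array, -0.1624 to 0.1772). Leaving out each array, Tyrobp ran from -0.003964 to 0.08464, negative without liposome array 2, and Clec7a from -0.2067 to 0.03702, positive without saline array 1. All 9 probes were well above background on all 4 arrays, so signal over background does not bound any of their values.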
